A study of Ulmus minor with 54 samples.

Results

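The leaf's own response to 6 h of feeding by beetle larvae was read from 6 RNA-seq libraries of the field elm, Ulmus minor, out of 54 in the series. In it, 3 larvae-fed libraries, called CT here, were set against 3 libraries of untouched leaves, called CC, both harvested at 6 h and both without any earlier egg treatment. The transcripts described are the 71158 of 237477 assembled sequences whose median level was at least 0.5 counts-per-million (CPM) over the 18 libraries of untreated leaves, called leaf-expressed. Those 18 libraries are CC and a second untreated group, C, at 1, 6 and 24 h. Another 96829 sequences were near 0 in untreated leaves, with less than 0.1 CPM over the pooled 18 libraries, and were kept apart. The remaining 69490 lay between.

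All trees were wild-type clones raised from in vitro culture, 15 to 19 weeks old, kept in a greenhouse. For CT, 5 newly hatched larvae of the elm leaf beetle were set on a leaf 7 days into the experiment, and about 100 mg of tissue around the treated site was taken. CC leaves received no larvae and no other stimulus. The groups used for comparison were PT, which had simulated eggs before the larvae, PC, which had simulated eggs and no larvae, and P against C, which were simulated eggs and no treatment in an earlier set of leaves. Simulated eggs were a scratched strip of epidermis covered with oviduct secretion, so wound and secretion act together in them. Each group had 3 libraries per time. Nothing in the labels ties the 3 to separate trees, and p-values thus reflect only how far libraries of a group lie apart, which may be technical.

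Chewing larvae wound a leaf and leave oral secretion in it. In plants in general, wounding sets off calcium and electrical signals and a burst of jasmonate, the hormone that turns on proteinase inhibitors, oxidases, enzymes of phenolic and terpenoid synthesis and other defences. Genes of photosynthesis and growth often fall in the same leaves. The deposited table pairs no identifier with a gene name, sequence or length, so transcripts are given by identifier, level and response, and none could be assigned to these functions. Leaf marker genes could not be looked up for the same reason. CPM are not divided by length, so levels are compared between libraries and not as molecules between transcripts.

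The 3 CT libraries at 6 h held 54225947, 81868967 and 78173798 counted reads, and the 3 CC libraries 46052721, 50966052 and 30009061. Each had reads on at least 71110 of the leaf-expressed transcripts. Rank correlations between the 6 libraries ran from 0.88 to 0.95. The 10 most abundant sequences took 5.68% to 34.6% of the reads. Outside the comparison itself, replicate 1 of CT at 24 h stood apart, with 14667334 reads on 42719 of the leaf-expressed transcripts against at least 71075 in every other library. It enters the shared estimate of spread, and the main counts are given with and without it. In the earlier set, replicate 1 of P is treated the same way: its sequences near 0 in untreated leaves took 47170, 35248 and 28070 RPM (CPM without TMM scaling) at 1, 6 and 24 h, against at most 4857 in untreated leaves.

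Feeding for 6 h raised 464 leaf-expressed transcripts and lowered 42, at an adjusted p of at most 0.05 (edgeR quasi-likelihood test, adjusted over all 147417 tested transcripts). The risers were 0.652% and the fallers 0.059% of the leaf-expressed transcripts. Among all tested transcripts the shares were 0.946% and 0.0387%. The response thus ran mostly upward, with 91.7% of the leaf-expressed calls being rises. The median riser rose by 2.30 on the log2 scale, with a range of 0.83 to 6.86. The median faller fell by 1.49, with a range of 0.69 to 3.02. Over all leaf-expressed transcripts the median log2 fold change was -0.02.

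These counts moved with the libraries and the tool. The median of the same 464 risers, read again in each alternative fit, lay between 2.08 and 2.47. They were chosen for their rise in mostly the same libraries, so this range is no test of stability. Without CC replicate 1, 3 or 4 there were 156, 164 or 192 risers and 17, 7 or 20 fallers, and without CT replicate 1, 2 or 3 there were 217, 302 or 504 risers and 16, 9 or 26 fallers. Without replicate 1 of CT at 24 h there were 716 risers and 137 fallers, which included 460 of the 464 and all 42. DESeq2 called 780 risers and 225 fallers, again including all 464 and all 42.

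**Figure D1:**
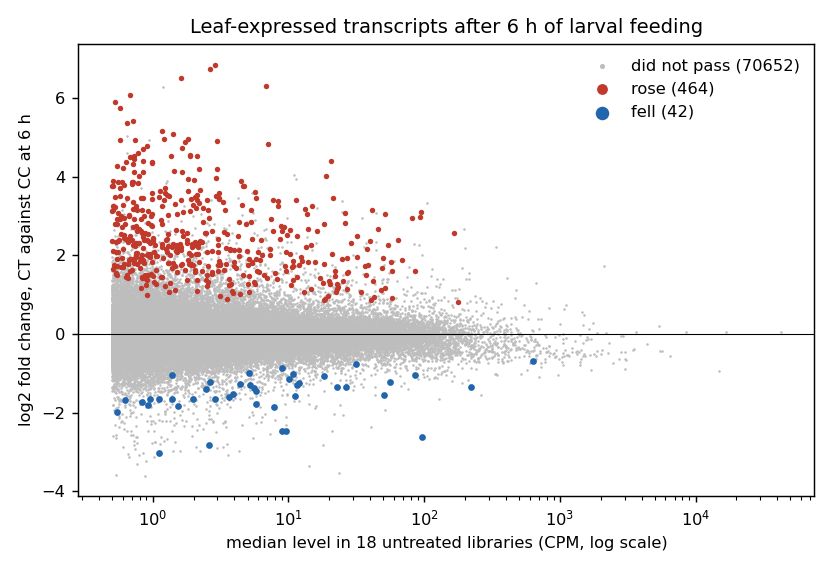
Log2 fold change of CT against CC at 6 h (y axis) for each of the 71158 leaf-expressed transcripts, against its median level in the 18 untreated libraries (x axis, CPM, log scale). The 464 transcripts that rose are red, the 42 that fell are blue and the others are grey; the rises reach 6.86 and the falls 3.02 log2 units.

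The rise with the smallest p was that of contig C263837. Its level was 5.00, 11.9 and 3.97 CPM in the 3 CT libraries and 0.0266, 0.0881 and 0.293 CPM in the 3 CC libraries. All 3 fed leaves were above all 3 unfed leaves, and the CC values rest on 17 reads in all, against 1556 in CT. The log2 fold change was 5.76 ± 0.62 (SE, n = 3 against 3, edgeR adjusted p = 7.09e-06). It rose also without each of the 6 libraries in turn, with log2 fold changes of 5.11 to 6.71.

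The riser with the highest level in fed leaves was contig C591435. It was at 657, 517 and 316 CPM in CT and at 55.4, 56.2 and 78.7 CPM in CC, so the lowest fed leaf was well above the highest CC leaf. Untreated C leaves at 6 h, scaled in a separate set, were at 551, 53.1 and 106 CPM. The log2 fold change of CT against CC was 2.97 ± 0.53 (SE, edgeR adjusted p = 0.00172), a 7.83-fold difference. Mean levels were 497 ± 171 CPM for fed and 63.5 ± 13.2 CPM for unfed leaves (SD, n = 3 each).

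The fall with the smallest p was that of scaffold7553. Its level was 2.33, 2.77 and 3.71 CPM in CT and 6.72, 8.02 and 9.43 CPM in CC. The groups did not overlap, and the log2 fold change was -1.45 ± 0.27 (SE, edgeR adjusted p = 0.00291). In the other set of untreated leaves it was higher at 6 h than at 1 h, with 11.99 ± 2.40 against 4.88 ± 0.916 CPM (SD, n = 3 each, log2 fold change 1.30, edgeR adjusted p = 0.00764). CC leaves of 1 h were at 4.35, 5.50 and 5.17 CPM, each above every fed leaf of 6 h.

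The faller with the highest level in unfed leaves was scaffold1366. It was at 348, 344 and 425 CPM in CT and at 577, 647 and 582 CPM in CC. The groups did not overlap, and the log2 fold change of -0.69 ± 0.17 was the smallest among the fallers (SE, edgeR adjusted p = 0.0369). This call was lost without CT replicate 1 or 2 or any CC replicate, with adjusted p of 0.0862 to 0.196, in a fit of the 6 libraries alone, with an adjusted p of 0.0708, and without a filter on low counts, with an adjusted p of 0.170.

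**Figure D2:**
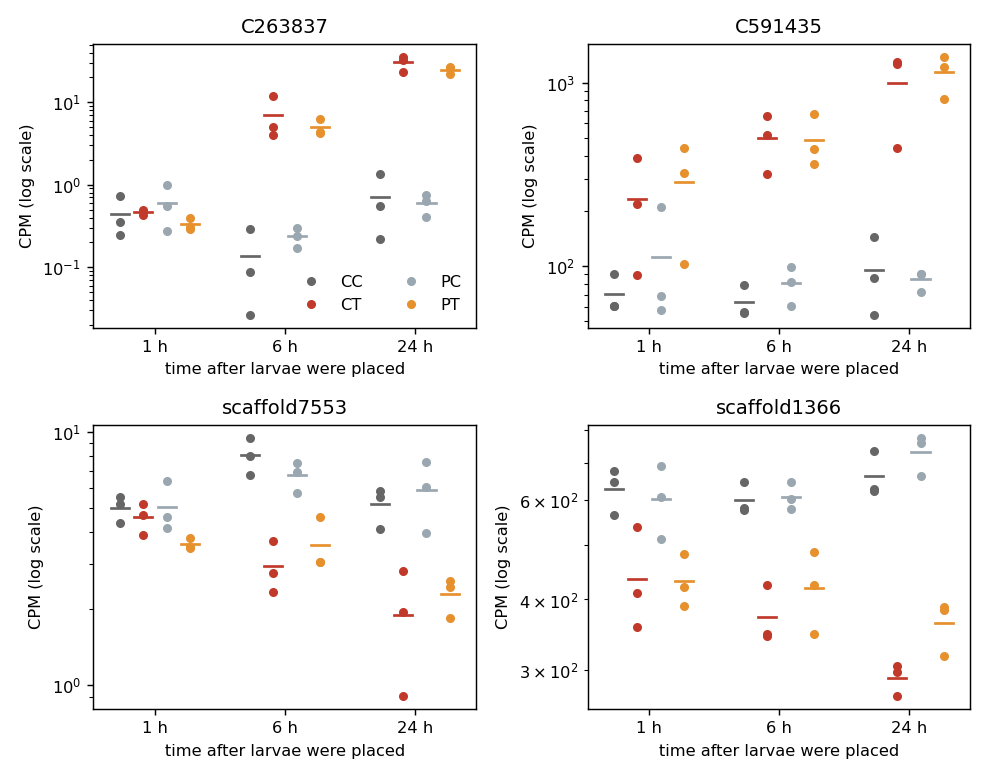
Level (y axis, CPM, log scale) of the 4 named transcripts in each of the 36 libraries of the feeding set at 1, 6 and 24 h (x axis), with points for libraries and bars for group means. At 6 h the CT points lie above all CC points for C263837 and C591435 and below all CC points for scaffold7553 and scaffold1366.

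Rises were large and falls small. Of the 464 risers, 454 rose at least 2-fold, 289 at least 4-fold (62.3%), 134 at least 8-fold and 45 at least 16-fold. Of the 42 fallers, 38 fell at least 2-fold and 5 at least 4-fold. Those 5, named after their values were seen, are scaffold20124, C256649, C256651, C607229 and scaffold17824. scaffold20124 was at 38.3, 27.2 and 31.3 CPM in CT and at 140, 259 and 202 CPM in CC, a log2 fold change of -2.63 ± 0.53 (SE, edgeR adjusted p = 0.00659). C256649 and C256651 had nearly the same levels in each library, such as 4.09 and 3.30 CPM in CT replicate 1 and 24.9 and 20.7 CPM in CC replicate 3, and it is not known whether they share reads. C607229 was at 0.066, 0.17 and 0.165 CPM in CT and at 2.23, 0.602 and 0.586 CPM in CC. scaffold17824 was at 1.37, 1.23 and 1.42 CPM in CT, and its CC libraries were far apart at 1.54, 8.3 and 18.9 CPM. Over all leaf-expressed transcripts, 0.846% differed at least 4-fold in either direction.

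All 3 CT libraries lay above all 3 CC libraries in 459 of the 464 risers, and below them in 41 of the 42 fallers. Over all leaf-expressed transcripts these shares were 9.56% and 10.3%. CC leaves harvested at 1 and 24 h are not part of the 6 h contrast, although they enter the leaf-expressed rule and the shared fit. All 3 CT libraries at 6 h were also above all 6 of those CC libraries in 331 risers (71.3%), against 8% of the leaf-expressed transcripts. They were below all 6 in 22 fallers (52.4%), against 9.59%. Risers and fallers were chosen on these same CT libraries, so their shares are partly fixed by the choice. The shares over all leaf-expressed transcripts are not, but those 6 CC libraries were harvested at other hours. With CC at 6 h included, all 3 CT libraries were above all 9 CC libraries in 3.32% of leaf-expressed transcripts and 71.1% of risers. They were below all 9 in 2.6% of leaf-expressed transcripts and 52.4% of fallers.

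Risers came from transcripts of low and high level alike, up to about 100 CPM in untreated leaves. The share that rose was 0.687% at 0.5 to 1 CPM, 0.585% at 1 to 5 CPM, 0.714% at 5 to 20 CPM and 0.886% at 20 to 100 CPM. Above 100 CPM, 2 of 1293 transcripts rose (0.155%), scaffold12625 and scaffold348, and 2 fell, scaffold24712 and scaffold1366. The median rise was 2.57 in the lowest class and 1.74 at 20 to 100 CPM, on the log2 scale. A test passes at lower levels only for larger changes, so these medians are not a comparison of the transcripts themselves. The share that fell was 0.0219% at 0.5 to 1 CPM and 0.143% at 5 to 20 CPM. The median level in untreated leaves was 1.81 CPM for the risers, 5.66 CPM for the fallers and 1.64 CPM for all leaf-expressed transcripts.

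Scaffolds were called more often than contigs, as a count without a test. They made up 22.8% of the leaf-expressed transcripts, 36.2% of the risers and 52.4% of the fallers. Scaffolds had higher levels, with a median of 6.85 CPM against 1.30 CPM for contigs in untreated leaves. Within level classes the share that rose was still higher in scaffolds, with 1.6% against 0.608% at 0.5 to 1 CPM, 1.11% against 0.482% at 1 to 5 CPM, 0.901% against 0.551% at 5 to 20 CPM and 0.998% against 0.662% at 20 to 100 CPM. One gene can be split over several of these sequences, so counts of transcripts are not counts of genes.

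The levels were also summed, as reads and not as molecules. The 464 risers together held 2163, 2283 and 2409 CPM in the CC libraries and 13705, 11240 and 7574 CPM in the CT libraries. The 42 fallers held 1494, 1829 and 1632 CPM in CC and 766, 658 and 803 CPM in CT. Fed and unfed leaves did not overlap in either sum, which follows from how the transcripts were chosen. In these bulk samples, fewer cells with a transcript and less of it per cell cannot be told apart.

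The fed leaves differed among themselves in the size of the response. Replicate 3 of CT was the lowest of its group in 356 of the 464 risers and replicate 1 the highest in 306. The median log2 difference from the mean of CC was 2.61, 2.32 and 1.83 in CT replicates 1, 2 and 3 over these risers. Over the 545 leaf-expressed risers of PT against PC at 6 h, chosen in other libraries, it was 1.75, 1.78 and 1.13, so replicate 3 was again the lowest. The 42 fallers, chosen in these same libraries, were more even, with -1.50 to -1.29 in the 3 CT libraries. Over the 113 leaf-expressed fallers of PT against PC at 6 h, chosen in other libraries, the range was -0.61 to -0.17. Reads on the sequences near 0 in untreated leaves differed as well, with 10758, 4406 and 5769 RPM in CT replicates 1, 2 and 3, in another order than the leaf's response. Their part in these differences was not tested.

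**Figure D3:**
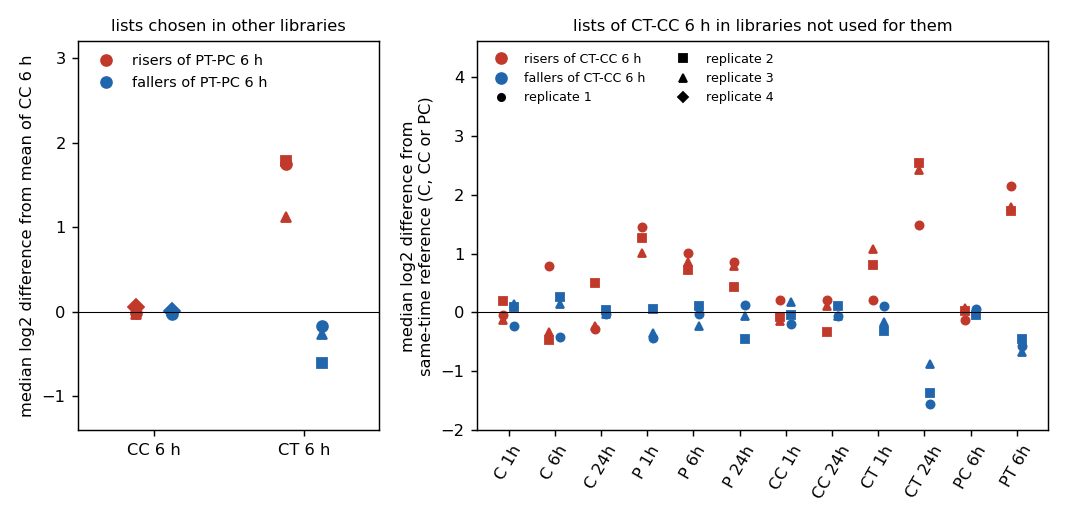
Median log2 difference (y axes) of each library from the mean of its unfed or untreated reference at the same time, with risers in red, fallers in blue and a marker per replicate number. Left, lists chosen in PT against PC at 6 h, where the CT libraries sit at 1.13 to 1.78 for risers; right, the 464 risers and 42 fallers of CT against CC in libraries outside that contrast, where the CT libraries sit at 0.20 to 1.08 at 1 h and 1.49 to 2.54 at 24 h for risers.

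The next question was when this response appears. CT against CC at 1 h shares no library with the 6 h comparison, and edgeR called 0 of the 464 risers there, as it called 0% of all leaf-expressed transcripts in either direction. Even so, 409 risers were already higher in CT, with a median log2 fold change of 0.76 against -0.04 over all leaf-expressed transcripts, of which 45.3% were higher. With p not adjusted, 185 of the risers were higher at 1 h at the 0.05 level (39.9%), where 5.48% of leaf-expressed transcripts differed in either direction. DESeq2 called 48 of the risers, of 224 leaf-expressed transcripts it called as higher. EdgeR without replicate 1 of CT at 24 h called 7 leaf-expressed transcripts as higher at 1 h, of which 4 were risers. The single fed leaves were spread widely at 1 h, with medians of 0.20, 0.81 and 1.08 over the risers. The fallers were lower in 29 of 42 cases at 1 h with a median of -0.20. EdgeR and DESeq2 each called 0 of them, and 6 were lower at the 0.05 level with p not adjusted.

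C591435 was at 89.2, 219 and 387 CPM in CT at 1 h, against 90.2, 60.3 and 60.7 CPM in CC, so the groups still overlapped. C263837 showed nothing of its later rise at 1 h, at 0.483, 0.497 and 0.433 CPM in CT and 0.732, 0.243 and 0.358 CPM in CC. The difference between the 6 h and the 1 h response was tested directly for every transcript. C263837 was the only leaf-expressed transcript called (0.00141%), with a difference of 5.65 ± 0.81 (SE, log2 scale, edgeR adjusted p = 0.0105). That call was lost without CT replicate 2, CC replicate 1 or CC replicate 3 of the 6 h libraries, with adjusted p of 0.0505 to 0.137. With p not adjusted, 2732 leaf-expressed transcripts differed at the 0.05 level (3.84%), and DESeq2 called 75.

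Most of the response was still present at 24 h, in other leaves. There 380 of the 464 risers were called as higher in CT (81.9%), against 4.95% of all leaf-expressed transcripts, and the median log2 fold change was again 2.30. These 380 were 10.8% of the 3521 leaf-expressed transcripts that rose at 24 h. Of the 42 fallers, 26 were called as lower (61.9%), against 10%, with a median of -1.29. The median over all leaf-expressed transcripts was -0.23 at 24 h and moved to -0.10 when libraries were scaled on the leaf-expressed transcripts alone, where the fallers' median was -1.11. Without replicate 1 of CT at 24 h, 394 risers and 23 fallers were called, among 4295 leaf-expressed transcripts that rose and 5583 that fell.

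Of the 464 risers, 84 were not called at 24 h. In these the median log2 fold change was 1.98 at 6 h and 0.99 at 24 h. All 84 were larger at 6 h. C365197, C375459 and scaffold25720, named after their values were seen, were below 0 at 24 h, with log2 fold changes of -0.47, -0.70 and -0.58 against 2.31, 1.46 and 1.19 at 6 h. All 464 were chosen on their 6 h values, so the order of the 2 times is a description. The 380 others had medians of 2.36 and 2.52. In summed level the risers reached 14359, 27712 and 23600 CPM in CT at 24 h, the lowest being replicate 1. C591435 stood at 439, 1300 and 1266 CPM in CT at 24 h, against 144, 54.3 and 86.5 CPM in CC. C263837 was at 23.1, 35.5 and 32.4 CPM in CT and at 1.35, 0.222 and 0.546 CPM in CC.

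**Figure D4:**
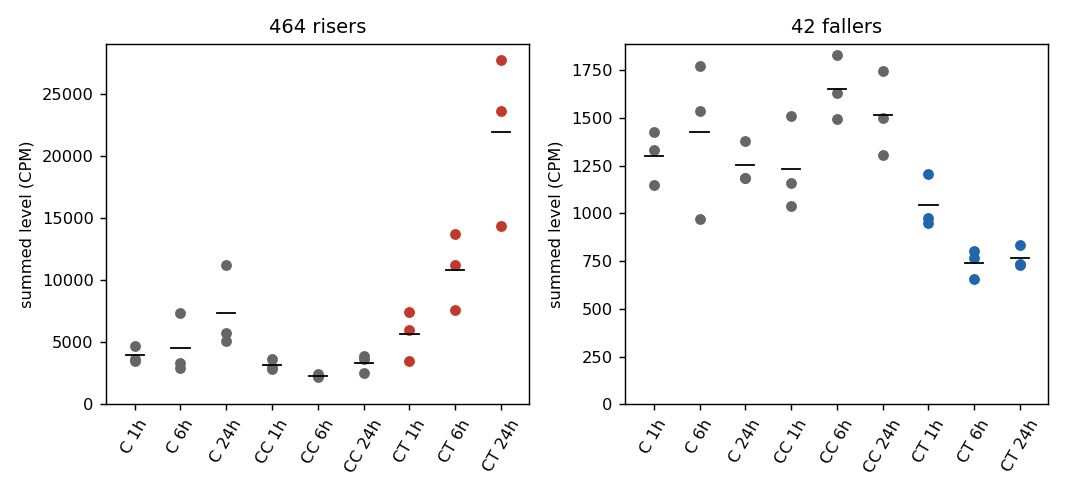
Summed level (y axes, CPM, from 0) of the 464 risers and the 42 fallers in untreated libraries (grey: C, CC) and larvae-fed libraries (coloured: CT) at 1, 6 and 24 h (x axis), with points for libraries and bars for means. The risers' sum in CT runs from 3516 to 7433 at 1 h, 7574 to 13705 at 6 h and 14359 to 27712 at 24 h; C and CC were scaled in separate sets.

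The direct test of the 24 h against the 6 h response called 4 leaf-expressed transcripts (0.00562%), none of them among the 464 risers or 42 fallers. They are named here after their values were seen. C283957 was at 1.35, 2.15 and 1.25 CPM in CT at 6 h against 1.97, 1.45 and 1.73 CPM in CC, and at 12.9, 10.9 and 8.38 CPM in CT at 24 h against 0.531, 1.05 and 0.212 CPM in CC. Its response was 4.23 log2 units larger at 24 h (edgeR adjusted p = 0.0420). C609291 and scaffold7507 likewise rose more at 24 h, by 3.41 and 3.40 (adjusted p = 0.00849 and 0.0420). scaffold6788 responded less at 6 h, with 36.8, 33.3 and 46.7 CPM in CT against 38.8, 45.05 and 50.97 CPM in CC, than at 24 h, with 16.7, 19.3 and 21.4 CPM against 69.4, 76.6 and 69.2 CPM (difference -1.69, adjusted p = 0.0420). Leaving out 1 of the 6 libraries of 6 h ended the call of scaffold7507 in each case and that of C283957 except without CC replicate 3. It ended that of scaffold6788 without CT replicate 1 or 3 or CC replicate 1 or 4, and that of C609291 without CT replicate 3, where no leaf-expressed call was left. Adjusted p then reached 0.105 for C609291 and 0.303 for the other 3. At the 0.05 level without adjustment, 7963 leaf-expressed transcripts differed (11.2%), and DESeq2 called 735.

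Prior simulated eggs gave a second, separate measurement of feeding at 6 h, in PT against PC. There 261 of the 464 risers were called as higher in fed leaves (56.2%), against 0.766% of all leaf-expressed transcripts. They were 47.9% of its 545 leaf-expressed risers. In all, 456 of the 464 were higher, with a median log2 fold change of 1.94, against -0.07 over the leaf-expressed transcripts. Without replicate 1 of CT at 24 h, which enters only the estimate of spread there, 314 of the 464 were called, and PT against PC had 1091 leaf-expressed risers and 521 fallers.

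The fallers were chosen for being low in CT against CC, which by itself favours smaller falls in any other comparison. EdgeR called 0 of the 42 fallers in PT against PC, where 113 other leaf-expressed transcripts fell (0.159%). The fallers were nonetheless lower in 39 of 42 cases, with a median of -0.55. Without adjustment 16 were lower at the 0.05 level, where 13.4% of leaf-expressed transcripts differed in either direction, and DESeq2 called 5, of 640 leaf-expressed fallers. EdgeR called 3 of the 42 once replicate 1 of CT at 24 h was left out, of 521 leaf-expressed fallers. scaffold7553 was at 3.06, 4.61 and 3.05 CPM in PT against 6.94, 7.54 and 5.71 CPM in PC (log2 fold change -0.91, edgeR adjusted p = 0.0971). scaffold1366 was at 347, 486 and 425 CPM in PT against 646, 603 and 578 CPM in PC (-0.54, edgeR adjusted p = 0.129). For both, no PT library reached the lowest PC library.

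Read the other way, the 545 risers of PT against PC had a median of 1.60 in CT against CC at 6 h. All 3 CT libraries were above all 3 CC libraries in 438 of them (80.4%), against 9.56% of the leaf-expressed transcripts. The 113 fallers had a median of -0.38 in CT against CC, with 105 below 0. In 35 of them all 3 CT libraries were below all 3 CC libraries (31%), against 10.3%. Whether prior eggs changed the response was tested as an interaction in the same fit. EdgeR called 0 leaf-expressed transcripts (0%), 2371 differed at the 0.05 level without adjustment (3.33%), and DESeq2 called 5. A p that misses the threshold does not show that the responses were alike.

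**Figure D5:**
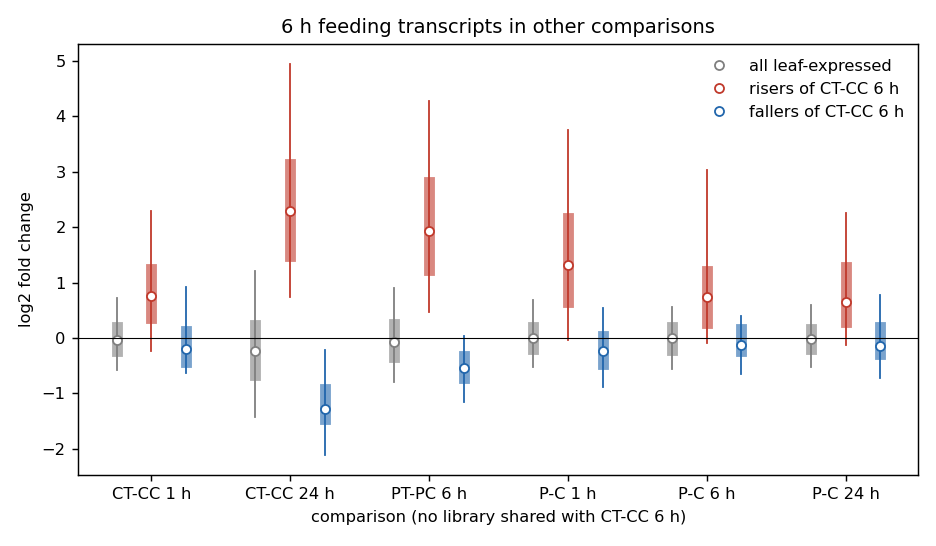
Log2 fold change (y axis) of the 464 risers, the 42 fallers and all leaf-expressed transcripts in 6 comparisons that share no library with CT against CC at 6 h (x axis); circles are medians, thick bars quartiles and thin lines the 5th to 95th percentile. The risers' medians are 0.76, 2.30 and 1.94 after feeding and 1.32, 0.73 and 0.65 after simulated eggs, and the fallers' medians -0.20, -1.29 and -0.55 after feeding.

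The risers were also higher after the scratch and oviduct secretion of simulated eggs, in leaves that no larva had touched. In P against C at 1 h their median log2 fold change was 1.32, with 438 of 464 higher, against -0.01 over all leaf-expressed transcripts. The test called 27 of them (5.82%), against 0.0801% of the leaf-expressed transcripts, and these were 47.4% of the 57 risers of that comparison. All 57 were read back in CT against CC at 6 h, where the median was 2.13. Of the 57, 52 had all fed libraries above all unfed ones, against 9.56% of the leaf-expressed transcripts. Over single P libraries at 1 h the medians were 1.45, 1.26 and 1.01. Without replicate 1 of P, 19 risers were called, of 45 leaf-expressed transcripts called as higher, and the median was 1.18.

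At 6 and 24 h after simulated eggs the medians of the risers were 0.73 and 0.65, with 426 and 425 of the 464 above 0. The test called 3 of the 464 at 6 h, against 0.0112% of leaf-expressed transcripts, and 0 at 24 h, against 0.00562%. The 3, named after their values were seen, were C334647, scaffold13668 and scaffold24972, with log2 fold changes of 2.77, 4.11 and 5.40 after simulated eggs and of 3.49, 4.29 and 3.24 after 6 h of feeding. scaffold24972 was at 8.8, 8.82 and 6.56 CPM in CT against 0.478, 1.51 and 0.469 CPM in CC. Without replicate 1 of P these counts were 12 and 1, of 23 and 6 leaf-expressed transcripts. DESeq2 called 42 and 13, of 145 and 83. Without adjustment, 148 and 130 were higher at the 0.05 level (31.9% and 28%), where 5.45% and 4.81% of leaf-expressed transcripts differed in either direction. The fallers had medians of -0.24, -0.12 and -0.15 at 1, 6 and 24 h after simulated eggs, and edgeR and DESeq2 called 0 of them as lower at each time, against 0.00141%, 0% and 0% of the leaf-expressed transcripts by edgeR, with 5, 2 and 1 lower at the 0.05 level without adjustment.

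C591435 was at 328, 590 and 358 CPM in P at 1 h, against 60.1, 131 and 97.1 CPM in C, without overlap (log2 fold change 2.15 ± 0.63, SE, edgeR adjusted p = 0.245). C263837 was at 8.13, 10.97 and 4.39 CPM in P at 6 h, against 1.87, 0.539 and 0.603 CPM in C, also without overlap (3.05 ± 0.58, SE, edgeR adjusted p = 0.124). Neither passed the threshold after simulated eggs.

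The 464 risers were sorted by their calls across CT against CC at 24 h, PT against PC at 6 h and P against C at 1 h. Of them, 222 were also called in the first and second (47.8%), 132 only in the first (28.4%), 17 only in the second, and 22 in all 3. Another 4 were called at 24 h and after simulated eggs, and 1 after simulated eggs alone. None of these 3 comparisons called 66 (14.2%). The 22 had medians of 3.01 at 6 h and 2.12 at 1 h of feeding and a median level of 2.64 CPM in untreated leaves. The 66 had medians of 1.95 at 6 h, 0.90 at 24 h and 0.89 in PT against PC, and a median level of 1.17 CPM.

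Harvest hour was read in untreated C leaves. There 18 of the 464 were higher at 6 h than at 1 h and 27 lower, or 3.88% and 5.82%, against 7.67% and 6.3% of all leaf-expressed transcripts. By size alone, 18.8% of the risers were at least 2-fold higher at 6 h and 13.8% at least 2-fold lower, against 7% and 6.95%. Of the 42 fallers 4 were higher and 11 lower, the latter being 26.2%.

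The risers varied more than other transcripts between untreated leaves. The median SD of log2 CPM within the C groups was 0.67 for the risers, 0.44 for the fallers and 0.31 for all leaf-expressed transcripts. In summed level, C leaves ranged from 2935 to 11181 CPM over the risers. The highest were replicate 2 at 24 h, with 11181 CPM, and replicate 1 at 6 h, with 7384 CPM, whereas the 9 CC leaves ranged from 2163 to 3856 CPM. C and CC were scaled in separate sets, so these ranges are set side by side only. C591435 followed the same leaves, with 551 CPM in C replicate 1 at 6 h against 53.1 and 106 CPM in the other replicates.

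The unfed reference of the comparison was itself set beside the other untreated leaves harvested at 6 h, after all 54 libraries had been scaled together. The mean of CC at 6 h was below that of C at 6 h in 354 of the 464 risers (76.3%) and in 49% of all leaf-expressed transcripts, and below it in 5 of the 42 fallers (11.9%). The risers were chosen partly for being low in these CC libraries, so this is a description. Risers and fallers were also chosen on the CT libraries of 6 h, so the counts of CT against C are a description too. Against C at 6 h the risers' median log2 difference of CT was 1.62 (means plus 0.1 CPM), and all 3 CT libraries were above all 3 C libraries in 332 risers (71.6%), against 14.7% of the leaf-expressed transcripts. For the fallers the median was -0.46, and all 3 CT libraries were below all 3 C libraries in 15 of 42 (35.7%), against 13.2%. C and CC leaves belong to separate parts of the experiment, so set and leaf cannot be told apart here.

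For transcripts of high level the 2 untreated groups gave different pictures in single cases. scaffold12625 was at 319, 299 and 143 CPM in CT and 41.5, 29.6 and 56.9 CPM in CC at 6 h, a log2 fold change of 2.57 ± 0.47 (SE, edgeR adjusted p = 0.00213). Its level in C at 6 h was 215, 149 and 146 CPM with all libraries scaled together. The CT and CC values given here were scaled within the feeding set, so those of C are set beside them only. scaffold1366, which fell to 348, 344 and 425 CPM in CT, was at 287, 366 and 392.5 CPM in C at 6 h. Scaled in their own set, these C libraries were at 344, 406 and 437 CPM. scaffold348 was at 159, 115 and 130 CPM in CT, at 75.1, 87 and 65.6 CPM in CC and at 110, 82.3 and 78.3 CPM in C.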

How the data were processed

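Polyadenylated RNA of 54 elm leaf libraries was sequenced, and the authors deposited raw read counts per assembled sequence, with 1 column per library. Per the submitters' processing notes, CASAVA and Trimmomatic 0.33 were used. How reads were assembled, aligned and counted, and whether by strand, is not given in the sources used here. Reads of related, overlapping or antisense sequences therefore cannot be told apart.

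The 36 feeding libraries (CC, CT, PC, PT) and the 18 libraries of C and P were each filtered with filterByExpr (minimum count 10, minimum total count 15). Each set was scaled by TMM and fitted in 1 model with edgeR 4.0.16 (glmQLFit, glmQLFTest, R 4.3.3), without a replicate block. All 71158 leaf-expressed transcripts were tested in both. The threshold of 0.05 applied after Benjamini-Hochberg adjustment across every tested transcript of a comparison. SE is the log2 fold change over the square root of F. CPM use each set's own TMM-scaled library sizes. DESeq2 1.42.0 was an alternative. Per-library log2 values used a prior count of 2. The fits were tested on simulated data.

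Within groups, chi-square per degree of freedom between libraries was at least 9.48, so no library was counted as a repeat. Of the table's columns, 0 were left out. The named transcripts are, among called leaf-expressed transcripts whose groups did not overlap and whose mean log2 CPM reached 1, the riser and the faller with the smallest p, the riser highest in CT and the faller highest in CC. Members and lists were chosen with earlier results of these data known.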

Additional observations from a re-analysis of the deposited data

Results flagged for a closer look

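The feeding response of C263837 was 5.65 log2 units larger at 6 h than at 1 h (edgeR adjusted p = 0.0105). It stands out because the difference between the times itself passed the test. Its fed leaves were at 3.97 to 11.9 CPM at 6 h and at 0.433 to 0.497 CPM at 1 h. The unfed CC leaves also enter the difference, with a mean of 0.136 CPM at 6 h, on 17 reads, and 0.444 CPM at 1 h. C leaves at 6 h, scaled in a separate set, were at 1.87, 0.539 and 0.603 CPM.

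Between 6 and 24 h the feeding response differed by the same kind of test in C283957 (4.23), C609291 (3.41), scaffold6788 (-1.69) and scaffold7507 (3.40), all on the log2 scale as 24 h minus 6 h. C609291 was at 2.46, 1.84 and 1.68 CPM in CT at 6 h and at 11.5, 14.1 and 11.7 CPM at 24 h. scaffold7507 was at 3.89, 1.72 and 2.23 CPM in CT at 6 h and at 9.28, 13.7 and 8.79 CPM at 24 h. Without replicate 1 of CT at 24 h the adjusted p was 0.0545 for C283957 and for scaffold7507. Over the fits that leave out 1 of the 6 libraries of 6 h, adjusted p ran from 0.0334 to 0.303 for C283957 and scaffold6788, from 0.0517 to 0.303 for scaffold7507 and from 0.0155 to 0.105 for C609291. Without a filter on low counts C283957, scaffold6788 and scaffold7507 also missed the threshold, with 0.0524, 0.0506 and 0.0719.

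Sequences near 0 in untreated leaves, which the comparison leaves aside, took a mean of 6978 RPM (CPM without TMM scaling) in CT at 6 h against 3640 in CC, a ratio of 1.92. The 3 CT libraries held 10758, 4406 and 5769 and the 3 CC libraries 2769, 4347 and 3804 RPM, so the groups did not overlap. The exact 2-sided permutation test gave p = 0.1, the smallest that 3 against 3 libraries allow. The 3 CC libraries are among the 18 that define this set. They are thus low partly by the choice, and the test cannot decide whether feeding raised these reads. Outside that rule, PT at 6 h held 4735, 6923 and 3831 RPM and PC at 6 h 6985, 3762 and 4197 RPM, which overlap. Of the transcripts called as higher in CT, 496 were among the 10060 tested sequences near 0 in untreated leaves. Another 434 were among the 66199 tested that lay between these and the leaf-expressed ones. Over all tested sequences the share called as higher was 0.946%. The sequences near 0 were chosen for low levels in libraries that include CC at 6 h. The filter on low counts also favours those of them with reads in treated leaves. The count of 496 is thus partly fixed by the choice.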

How the results depend on the processing

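Over the 464 risers and 42 fallers of the main fit, the median log2 fold changes were 2.08 to 2.47 and -1.54 to -1.38. They kept their direction in 13 of 13 alternatives each, and no named transcript changed direction in any of them. Both lists were chosen by direction in mostly the same libraries, so this is no test of stability. Counts of calls depended on the fit. Lists below are remade in each alternative, and causes were not tested beyond fewer libraries or transcripts.

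DESeq2 gave 780 risers and 225 fallers at 6 h. Among these it called 64 at 1 h, 612 and 145 at 24 h, and 464 and 26 in PT against PC. Of all leaf-expressed transcripts it called 224 as higher and 20 as lower at 1 h. At 24 h these totals were 4953 and 9126, and in PT against PC 1219 and 640. DESeq2 called 75, 735 and 5 transcripts in the tests of 6 h against 1 h, 24 h against 6 h and prior eggs. Of its risers it called 205, 60 and 16 after simulated eggs at 1, 6 and 24 h, and 132 between C at 6 and 1 h. Over all leaf-expressed transcripts it called 646, 145 and 83 as higher after simulated eggs. Between C at 6 and 1 h it called 6234 of them as higher and 5705 as lower.

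Without a filter there were 18 fallers, 11 of them lower at 24 h, of 6413 leaf-expressed transcripts called as lower there. That fit gave 1 call for 24 h against 6 h. DESeq2 size factors and TMM on leaf-expressed transcripts each gave 2 fallers also called in PT against PC, of 137 and 107 leaf-expressed fallers there. TMM on leaf-expressed transcripts gave 43 calls for 24 h against 6 h. The 6 libraries alone gave 108 fallers. Without P replicate 1, chosen after seeing the data, simulated eggs gave 12 and 1 calls at 6 and 24 h, of 23 and 6 leaf-expressed transcripts.

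A leaf-expressed minimum of 0.25 CPM gave 3 calls at 1 h. A minimum of 1 CPM gave 307 risers, 0 calls for 6 h against 1 h and 2 for 24 h against 6 h.

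The replicate numbers are 1, 3 and 4 in CC and 1, 2 and 3 in CT at 6 h, and deviations of same-numbered libraries correlated at -0.08 and 0.19, so the numbers were not taken as pairs. A fit with the replicate number as a block gave 270 risers and 27 fallers, 234 risers also higher at 24 h, 2 fallers also lower in PT against PC and 11 calls for 24 h against 6 h. Over all leaf-expressed transcripts it called 3565 as higher at 24 h and 133 as lower in PT against PC. Under the block scaffold1366 at 6 h and scaffold6788 at 24 h against 6 h missed the threshold (adjusted p = 0.109 and 0.0602). After simulated eggs, that block gave 59, 33 and 2 calls among its risers at 1, 6 and 24 h, and 13 between C at 6 and 1 h. Over all leaf-expressed transcripts it called 360, 121 and 51 as higher after simulated eggs. Between C at 6 and 1 h it called 2007 of them as higher and 1155 as lower.

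Leaving out 1 of the 6 libraries at 6 h or CT 24 h replicate 1 gave 156 to 716 risers and 7 to 137 fallers. Of these 0 to 4 were called at 1 h, 138 to 584 and 6 to 78 at 24 h, and 117 to 421 and 0 to 12 in PT against PC. The same fits called 0 to 7 leaf-expressed transcripts as higher at 1 h. At 24 h they called 3242 to 4295 as higher and 5583 to 7508 as lower. In PT against PC these totals were 489 to 1091 and 79 to 521. The tests of 6 h against 1 h, 24 h against 6 h and prior eggs gave 0 to 1, 0 to 5 and 0 calls. Depth was not varied in any alternative.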
